A study of Mus musculus with 2 samples.

Results

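The named small nucleolar and small Cajal body RNA genes were taken by symbol: every annotated gene whose name began with Snord, Snora or Scarna and a number. The rule found 150 genes with 147 symbols among 55536 annotated genes, namely 99 Snord genes (box C/D), 42 Snora genes (box H/ACA) and 9 Scarna genes (Cajal body). Snora43, Snora16a and Snord80 each named 2 genes. Both libraries were total RNA from the gastrocnemius, a calf muscle, of female B6CASTF1/J mice aged 14 days, which are first-generation hybrids of C57BL/6J and CAST/EiJ. They are replicates 1 and 2 of 1 group, with no other genotype, treatment or age, so the values describe this muscle and how far the 2 libraries differed. Library descriptions name 3 females for each, while the tissue text for replicate 2 names 1 in the singular, so a pool cannot be told apart from a single animal, and the spread between libraries may be technical. The gene tables gave 35592003 expected counts in replicate 1 and 42105856 in replicate 2. The 6 muscle fibre markers, among them Acta1 and Ckm, summed to 101889 TPM (a level per length, scaled to a fixed sum over all features) in replicate 1 and 106393 TPM in replicate 2.

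Small nucleolar RNAs guide enzymes to chosen bases of ribosomal RNA. Box C/D RNAs pair with a target that fibrillarin then methylates on the ribose, and box H/ACA RNAs pair with a target in which dyskerin turns uridine into pseudouridine. Small Cajal body RNAs use the same 2 boxes, sometimes both in 1 molecule, to modify spliceosomal RNAs. In mammals most are cut out of the introns of longer host genes, so their own short length and the reads of the host both bear on how they are counted.

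Sequences of the members that led each class, or that marked an edge of what the tables could count, were taken from the GENCODE M21 transcripts (mm10). Snord15b, Snord22 and Snord17 had high levels for box C/D genes. Snord16a, of 99 bases, and Snord37, the shortest at 64 bases, were chosen after their values were seen. Capitals mark TGATGA (the C box) within the first 20 bases and CTGA (the D box) within the last 20, on the transcribed strand.
Snord15b: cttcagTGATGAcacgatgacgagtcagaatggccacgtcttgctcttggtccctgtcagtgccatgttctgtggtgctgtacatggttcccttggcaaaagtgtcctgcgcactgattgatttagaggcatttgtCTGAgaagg
Snord22: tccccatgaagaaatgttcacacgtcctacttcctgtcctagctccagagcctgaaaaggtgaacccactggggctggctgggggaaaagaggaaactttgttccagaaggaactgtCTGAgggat
Snord17: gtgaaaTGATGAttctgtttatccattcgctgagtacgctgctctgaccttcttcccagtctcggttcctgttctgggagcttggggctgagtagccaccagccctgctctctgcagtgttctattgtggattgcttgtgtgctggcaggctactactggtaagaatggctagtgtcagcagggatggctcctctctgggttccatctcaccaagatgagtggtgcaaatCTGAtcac
Snord16a: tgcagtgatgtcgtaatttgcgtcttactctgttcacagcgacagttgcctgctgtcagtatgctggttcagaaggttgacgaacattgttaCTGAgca
Snord37: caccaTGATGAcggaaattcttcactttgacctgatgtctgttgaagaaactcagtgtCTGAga
They lie at chr7:99479563-99479707 (minus strand), chr19:8725866-8725991 (plus), chr2:144265979-144266216 (minus), chr9:64175423-64175521 (plus) and chr10:81178950-81179013 (plus), in the order printed. The exact letters of both boxes were found in their windows in 68 of 99 Snord genes (68.7%), against 270 of 20342 other transcripts of 64 to 414 bases (1.33%). Snord22 and Snord16a had the D box letters alone.

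Snora73b had the highest mean TPM of the box H/ACA genes, and Snora73a is its near-identical copy. Capitals mark the hinge letters ANANNA near the middle and ACA close to the 3′ end.
Snora73b: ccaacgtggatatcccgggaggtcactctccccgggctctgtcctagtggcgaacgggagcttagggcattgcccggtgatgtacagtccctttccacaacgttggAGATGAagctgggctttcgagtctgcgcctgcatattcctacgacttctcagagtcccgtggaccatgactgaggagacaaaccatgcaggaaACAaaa
Snora73a: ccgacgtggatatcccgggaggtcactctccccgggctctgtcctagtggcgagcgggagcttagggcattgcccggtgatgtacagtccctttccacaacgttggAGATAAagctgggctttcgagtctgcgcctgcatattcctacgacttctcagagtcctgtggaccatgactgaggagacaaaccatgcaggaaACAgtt
They lie on the minus strand at chr4:132352322-132352526 and chr4:132352775-132352979. Both are 205 bases long and share 198 of 205 aligned bases (96.6%), so a read can fit both. ACA close to the 3′ end, in a window of 6 bases, was present in 40 of 42 Snora genes (95.2%). It was present in 14.1% of the 20342 other transcripts of 64 to 414 bases, a wider range of length than that of the Snora genes.

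The last 150 bases of the 2 longest members show the same letters in another arrangement. Capitals mark every TGATGA and CTGA.
Scarna10: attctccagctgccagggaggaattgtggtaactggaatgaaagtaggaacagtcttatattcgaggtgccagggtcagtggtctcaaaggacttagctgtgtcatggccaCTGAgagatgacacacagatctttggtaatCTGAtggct
Scarna2: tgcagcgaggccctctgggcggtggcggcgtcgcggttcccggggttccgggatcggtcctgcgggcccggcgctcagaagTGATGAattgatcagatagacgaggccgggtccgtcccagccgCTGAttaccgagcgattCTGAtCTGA
The stretch of Scarna10 lies at chr6:125186359-125186508 and that of Scarna2 at chr3:108554338-108554487, both on the minus strand. Scarna2 held TGATGA well inside its sequence and none within its first 20 bases, and so did not count among the 4 of 9 Scarna genes with both boxes in the windows. A match of letters is a description and not a tested site.

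Length split the members before any level could be read. In the gene tables the effective length, the number of places where a read could begin, was the annotated length minus 99 bases. It was therefore 0 for the 89 members under 100 bases, 87 Snord and 2 Scarna genes (Scarna9 and Scarna17), and each of them was listed at 0 counts in both libraries. The other 373 snoRNA and scaRNA genes under 100 bases, and 1921 other genes with a single transcript of that length, were likewise all at 0. A value of 0 for these genes carries no information about the muscle. Snord16a, with 99 bases, stood on 1 side of this edge and Snord13, with 104 bases and 5 possible start positions, on the other.

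The genes without a measurement include whole host clusters. All 17 Snord116 genes of 94 bases, which lie in Snhg14 in the interval whose paternal loss in humans causes Prader-Willi syndrome, were at 0. They held 4 distinct sequences, and 14 of the 17 were identical. Snhg14 itself had 0.71 TPM in replicate 1 and 1.01 TPM in replicate 2. Snord47, Snord78 and the 2 genes named Snord80 lie in Gas5, which had 34.3 and 36.0 TPM. Snord32a, Snord33, Snord34 and Snord35a lie in Rpl13a, which codes for a ribosomal protein and had 331 and 422 TPM. Snord14c, Snord14d and Snord14e lie in Hspa8, a heat shock protein gene with 437 and 607 TPM. None of these members reached 100 bases, so a host's reads were the measurement left at these loci.

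**Figure D1:**
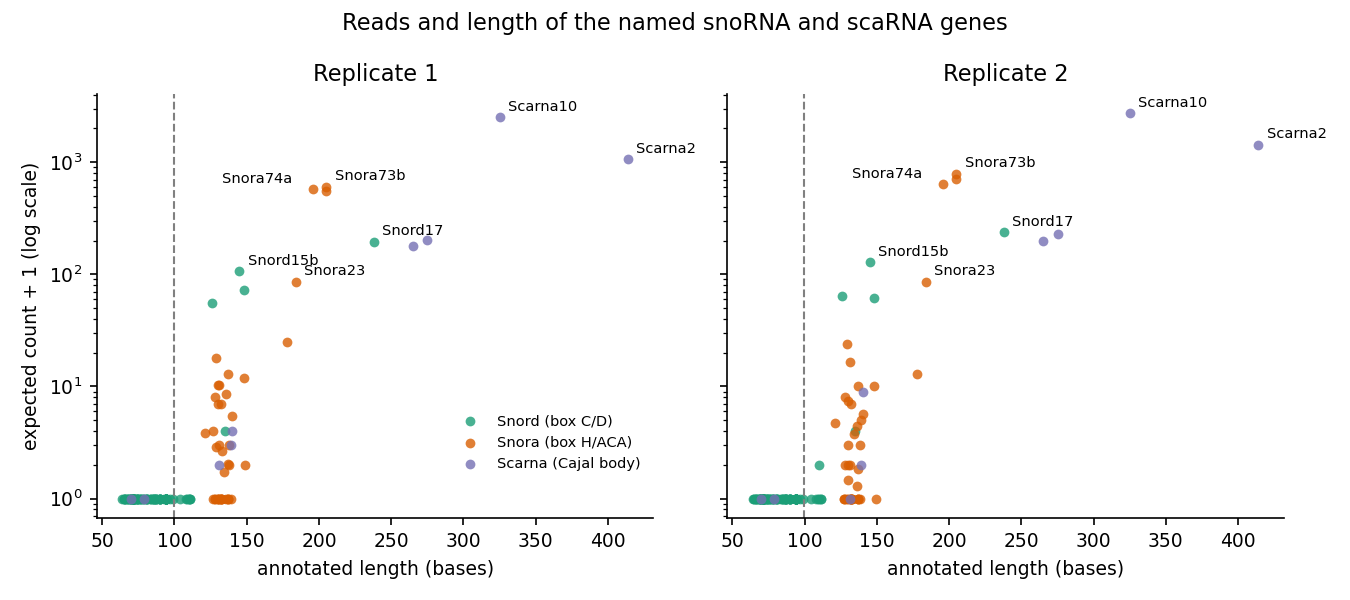
Expected count plus 1 (log scale) against annotated length in bases for the 150 members, in replicate 1 (left) and replicate 2 (right), coloured by class. The dashed line marks 100 bases: every member to its left sits at 0 counts, and Scarna10 and Scarna2, the longest members, sit at the top right.

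Among the 61 members that could hold a read (12 Snord, 42 Snora and 7 Scarna genes), 44 had a count above 0 in at least 1 library and 28 had at least 1 count in both. These 28 were 5 Snord, 17 Snora and 6 Scarna genes. In the range of 100 to 149 bases, 18 of 51 members (35.3%) had at least 1 count in both libraries. The shares at that length were 36 of 981 (3.67%) for other snoRNA and scaRNA genes, whose names fall outside the rule, and 26 of 2495 (1.04%) for single-transcript genes of other types. All 3 members of 150 to 199 bases were read in both libraries, beside 4 of 23 other snoRNA and scaRNA genes and 54 of 870 genes of other types. All 7 members of 200 bases or more were read, beside 14 of 32 other snoRNA and scaRNA genes of 200 to 414 bases. For single-transcript genes of other types in that range it was 377 of 5511 (6.84%).

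A further 17 of the 61 were at 0 in both libraries, 6 Snord and 11 Snora genes. The 0 does not mean the same for each of them. Here 3 counts, the limit used for a 0, came to 2.81 to 21.3 TPM in replicate 1 and 2.43 to 18.5 TPM in replicate 2. Snord13, Snora35, Snora75 and Snora52 are named here after their values were seen. The highest limit, 21.3 and 18.5 TPM, belongs to Snord13, which in human cells helps to direct acetylation of small-subunit ribosomal RNA. Snora35, which lies in the serotonin receptor gene Htr2c, had a limit of 3.68 and 3.18 TPM. Snora75, in the nucleolin gene Ncl, had a limit of 3.14 and 2.71 TPM, and its sequence is also held whole by 1 longer transcript. Of the 17, 6 are held whole by a longer annotated transcript, to which a read could have been assigned instead. For such members 3 counts need not be an upper limit. Snora52, 1 of the 6, had deposited upper bounds of 4.70 and 4.23 TPM, above its limits of 2.81 and 2.43 TPM. Limits and intervals here cover counting error only.

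Together the members held 1615.50 TPM in replicate 1 and 1616.48 TPM in replicate 2, or 0.164% ± 1.7e-05 of the TPM of all annotated genes (SD, n = 2). As reads they were fewer still, 6339 and 7443 counts, 0.0178% and 0.0177% of all gene counts. Box H/ACA genes made up the largest part of member TPM, with 757 TPM in replicate 1 and 765 TPM in replicate 2 (47.1% ± 0.322 of member TPM). Cajal body genes came next with 600 and 599 TPM (37.1% ± 0.0636), and box C/D genes had 259 and 253 TPM (15.8% ± 0.258; SD, n = 2 for each). The order depends on length. Per read, Cajal body genes led with 62.5% and 62.2% of member counts, against 30.7% and 31.2% for box H/ACA and 6.79% and 6.60% for box C/D genes. With counts divided by the whole annotated length, Cajal body genes also led, at 48.4% of the member total on average, against 41.5% for box H/ACA and 10.1% for box C/D genes. The box C/D total rests on the 12 of 99 genes that could be read.

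A few genes carried most of it. Scarna10, Scarna2, Snora73b, Snora73a and Snora74a held 83.7% and 84.9% of member counts and 68.9% and 71.1% of member TPM in replicates 1 and 2. Adding Snord17, Scarna13, Scarna6 and Snord15b took the share of counts to 94.5% and 95.5%.

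Scarna10 was the member with the highest level. In humans its counterpart joins a box C/D and a box H/ACA part and modifies the U5 spliceosomal RNA. It had 395 TPM in replicate 1 and 375 TPM in replicate 2 (385 ± 14.0, SD, n = 2), from 2510 and 2756 counts. The deposited bounds around these values, whose level is not stated, were 370 to 400 and 352 to 380 TPM, above those of every other member in both libraries. Scarna2, which in humans guides methylation of U2, had 120 TPM from 1067 counts in replicate 1 and 140 TPM from 1436 counts in replicate 2 (130 ± 14.0). Its bounds, 111 to 125 and 131 to 145 TPM, did not overlap between the libraries. It was the 1 member of the 17 with a summed count of at least 20 for which they did not. No such share was computed over all genes. On the TMM-scaled counts described below, the log2 ratio of replicate 1 over replicate 2 was -0.06 for Scarna2, with an interval of -0.17 to 0.06 that spans 0. For Scarna10, whose bounds overlapped between the libraries, it was 0.24 (0.16 to 0.31). The separation of the Scarna2 bounds was therefore not read as a difference between the libraries.

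Scarna13 and Scarna6 came far below. Scarna13, a box H/ACA RNA of Cajal bodies in humans, had 40.8 and 39.9 TPM (40.3 ± 0.672), and Scarna6, whose human counterpart has both kinds of box, had 38.1 and 36.7 TPM (37.4 ± 1.01; SD, n = 2 for each). Their bounds overlapped in both libraries, so their order is not resolved. Scarna3a had 3 and 8 counts, Scarna3b 2 and 1, and Scarna8 1 and 0, which is too few to rank them.

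In TPM, Snora73b, Snora74a and Snora73a formed the next step below Scarna10. Snora73 is the U17 RNA, which is needed to cleave the precursor of small-subunit ribosomal RNA. Snora73b had 203 TPM in replicate 1 and 229 TPM in replicate 2 (216 ± 18.1), and Snora73a had 186 and 203 TPM (195 ± 11.9; SD, n = 2 for each). The copies differ at 7 of 205 bases, so their split can be uncertain, though the deposited posterior SD was 6.05 and 6.83 counts for Snora73b and 6.21 and 6.91 counts for Snora73a, near 1% of each count. Their sum was 1161 counts (389 TPM) in replicate 1 and 1488 counts (432 TPM) in replicate 2. Snora74a, the U19 RNA, had 209 and 202 TPM (206 ± 4.49). The bounds of the 3 genes overlapped in both libraries. All 3 lay above Scarna2 in both.

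The other box H/ACA genes were lower by a wide step. Snora23 had 35.5 TPM in replicate 1 and 30.8 TPM in replicate 2 from 85 counts in each. Snora44 and Snora61, both in Snhg12, had 19.9 and 23.5 TPM and 10.6 and 6.42 TPM. Snora68 had 10.4 and 14.8 TPM from 9.40 and 15.4 counts, and Snora21, in Rpl23, had 11.2 and 7.28 TPM from 12 and 9 counts. From Snora44 down each value rested on fewer than 25 counts per library, and the bounds of neighbours overlapped.

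In TPM, box C/D genes were led by Snord15b and Snord22. Snord15b, a guide for large-subunit ribosomal RNA, had 81.7 TPM in replicate 1 and 85.3 TPM in replicate 2 (83.5 ± 2.57), from 106 and 128 counts. Snord22, whose frog counterpart is needed to make small-subunit ribosomal RNA, had 71.8 and 72.3 TPM (72.1 ± 0.318) from 54.6 and 63.5 counts. It had 27 possible start positions, so its level depends on the choice of length: divided by all 126 bases, its mean on the rescaled TPM was 18.8, below the 36.3 of Snord17 on that scale. Snord15b, at 32.3 on that scale, was below Snord17 as well. Snord17 also had more counts than either, 195 and 236, so the leader of the class depends on the length used. Snord17 had 49.9 and 52.2 TPM (51.0 ± 1.66), and Snord15a had 52.2 and 37.7 TPM (44.9 ± 10.3; SD, n = 2 for each).

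Snord15a and Snord15b lie in the same host, Rps3, and share 66.0% of aligned bases, so their reads are more easily told apart than those of the Snora73 pair. The bounds of Snord15b lay above those of Snord15a in both libraries. Snord118, the U8 RNA that in frogs is needed for large-subunit ribosomal RNA, had 3 counts in each library (2.96 and 2.56 TPM). Snord8 had 0 and 1 counts. The remaining 6 readable box C/D genes, Snord13, Snord23, Snord43, Snord67, Snord89 and Snord90, were at 0.

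**Figure D2:**
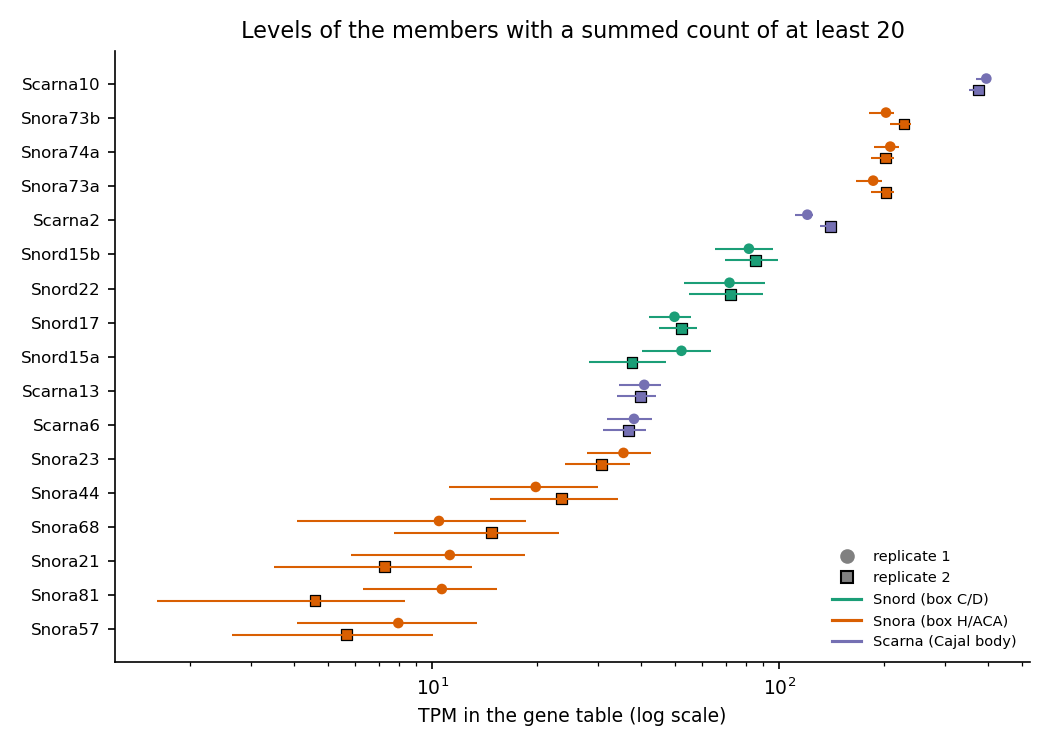
TPM in the gene tables (log scale) for the 17 members with a summed count of at least 20, by rank of the mean. Circles are replicate 1, squares replicate 2, colours the class, and lines the deposited lower and upper bounds. Scarna10 stands alone at the top, and the lines widen toward Snora57 at the bottom, which had 11 and 9 counts.

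The second quantification, made directly from the reads and called direct below, gave almost none of these genes a count. Scarna2 had 323 direct counts in replicate 1 and 402 in replicate 2, which is 30.3% and 28.0% of its gene-table counts. Scarna10 had 1 and 0 direct counts, against 2510 and 2756 in the gene tables. Every other member, the Snora73 pair and Snora74a included, was at 0 in both libraries. Scarna2 had 112 and 123 TPM in the direct tables and 120 and 140 TPM in the gene tables, so its TPM differed less than its count. The 2 TPM scales do not share a denominator, so their values are not directly comparable. Rn7s1 and Rn7s2, the signal recognition particle RNAs, each had 128699 and 125205 TPM in the gene tables but 1 and 1.5 direct counts. The part of this in the 2 levels of Scarna2 was not tested.

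The difference followed transcript length over all annotated transcripts. For long transcripts the direct tables subtracted 341 bases in replicate 1 and 343 in replicate 2 to reach the effective length, against 99 in the gene tables. Transcripts of 100 to 199 bases, 54 members among them, had 0 direct counts in both libraries, against 37009 and 41636 in the transcript tables. Those of 200 to 299 bases kept 0.0360% and 0.0263%, those of 300 to 341 bases kept 0.0122% and 0.0115%, and those of 342 to 499 bases kept 49.5% and 49.3%. Of the 1610434 counts in replicate 1 from 300 to 341 bases, most belonged to Rn7s1 and Rn7s2, the signal recognition particle RNAs (727726 each). The percent of that range therefore mainly describes those genes. From 400 to 429 bases, the range that holds Scarna2, 29.5% and 27.9% were kept, close to the values of Scarna2 itself. Transcripts of 1000 bases and over had 106.1% and 105.6%.

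RNAs outside the members with similar lengths did the same, of which Rn7sk and Rmrp are already part of the ranges above. Rn7sk, an abundant regulator of transcription, had 0 direct counts in both libraries, against 101623 and 134886 in the gene tables. Rmrp, the RNA of RNase MRP, had 0 in both, against 9939 and 15784. Spike-in RNAs of known sequence up to 341 bases had 0 direct counts, against 48 and 32, and those of 342 to 599 bases kept 48.5% in each library. A 0 for a member under 342 bases in the direct tables was therefore read as a limit of that table, with no level drawn from it. Longer spike-ins kept 70.1% and 69.6% at 600 to 999 bases, and 78.9% and 77.9% at 1000 to 3000 bases. Annotated transcripts kept more, 94.8% and 95.4% at 500 to 999 bases and 106.1% and 105.6% from 1000 bases. The cause of that gap was not tested.

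Longer transcripts that hold a member whole could differ between the quantifications too, and which reads moved was not tested. The whole sequence of Snora74a lies in a transcript of its host, AC121821.1-204. That transcript had 657 direct counts in replicate 1 and 742 in replicate 2, against 2.52 and 5.29 in the transcript tables, while Snora74a had 570 and 638 in the gene tables. Summed over the host, the direct quantification gave 781 and 859 counts, where the gene tables gave 89.4 and 102. Other members did not all show this: Rps3-204, which holds Snord15b whole, had 192 and 240 direct counts, against 21.96 and 31.47 in the transcript tables, but its gene Rps3 had fewer in sum, 4086 and 5565 direct counts, against 4899 and 6669. Scarna10 and the Snora73 pair, which no longer transcript holds whole, had host counts that differed less: Ncapd2 had 674 and 874 direct counts, against 625 and 811, and Snhg3 had 55 and 100, against 65.2 and 110. In all, 70 of the 150 members are held whole by a longer transcript.

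**Figure D3:**
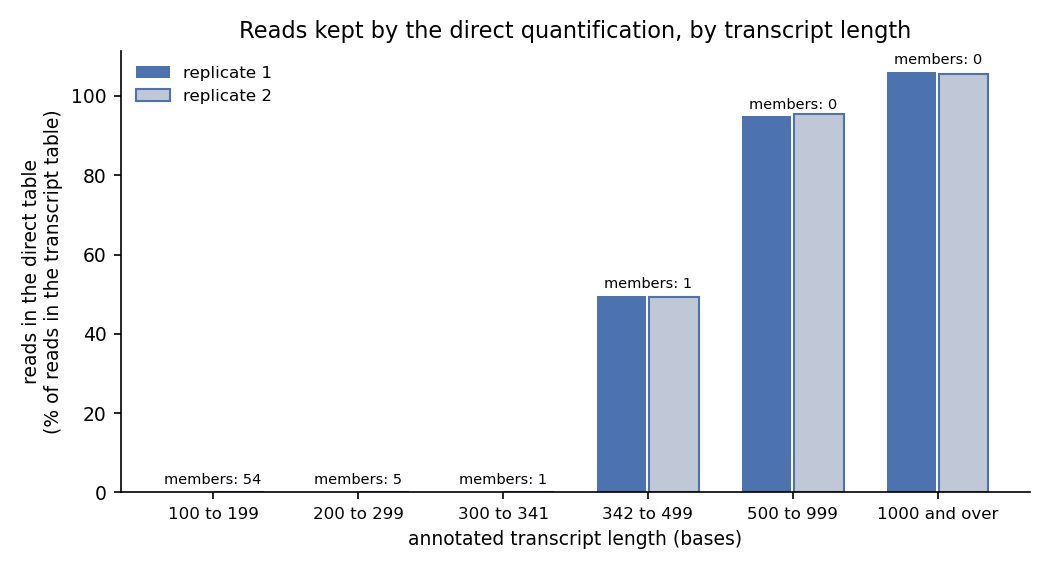
Direct counts as a percent of the counts in the transcript tables, by annotated transcript length in bases, with replicate 1 left and replicate 2 right in each pair and the number of members above it. The bars are at or near 0 up to 341 bases, where all but 1 of the 61 readable members lie, and near 49% in the range that holds Scarna2.

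Most members lie in a host. For 141 of 150 a longer gene on the same strand spans the whole member, and for 89 the host with the highest level codes for protein. The members overlap a host exon in 65 cases. The 9 without a host are Scarna2, Scarna17, Snord13, Snord118, Snord104, Snora17, Snora57 and the 2 genes named Snora43. Scarna2 gave 1067 and 1436 of the 1090 and 1458 counts of this group.

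The members with at least 1 count in both libraries differed widely from their hosts. Of the 24 with a host, 12 had a higher TPM than it in both libraries. The 9 members in non-coding hosts were all above the host, by a median ratio of 20.4 in replicate 1 and 10.1 in replicate 2. Of the 15 in protein-coding hosts, 3 were above it (Scarna10, Scarna6 and Snord17), and the median ratio was 0.132 and 0.0908. These members had passed a count minimum: they are 9 of 15 readable members in non-coding hosts and 15 of 39 in protein-coding hosts, so the ratios say nothing of the rest. Over a host of low level, a few counts are enough to put a short member above it. For Snora78 3 counts came to 3.68 and 3.18 TPM, while its host Snhg9 had 0.42 and 1.46 TPM from 1 and 4 counts. The replicate 1 median of 20.4 is the ratio of Snora78 itself. The ratios also depend on the length used. TPM divides by effective length, which was 31 of 130 bases for Snora61, so it raises a short member more than a long host. Ratios on annotated length were not computed, and the number above the host may differ on that scale. The Spearman correlation of member and host TPM over the 24 was -0.285, given as a description of genes that share the same libraries.

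At the high end, Snora74a had 70.1 times the TPM of AC121821.1 in replicate 1 and 71.0 times in replicate 2. Scarna10 had 58.6 and 41.7 times that of Ncapd2, a condensin gene with 6.74 and 8.99 TPM. Scarna13 had 28.9 and 39.5 times that of Snhg10, and Snora73b had 31.9 and 24.1 times that of Snhg3. Snora78, which was chosen after its values were seen, had 20.4 and 5.08 times that of Snhg9, from 7 counts in each library.

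Several members lay below hosts of high level. Snord15b had 0.676 and 0.629 times the TPM of Rps3, which codes for a ribosomal protein and had 121 and 136 TPM. Snora21 had 0.0408 and 0.0221 times that of Rpl23, another ribosomal protein gene, with 275 and 330 TPM. Snora31, chosen after its values were seen, had 6 and 1 counts, while its host Tpt1 had 1416 and 1556 TPM. Reads of a member that overlaps a host exon may be divided between the 2, and the part of that division in these ratios was not tested. Of the 34 readable members that overlapped no host exon, 16 had at least 1 count in both libraries. These 34 include the 7 readable members without a host, of which 4 had such counts. Of the 27 that overlapped a host exon, 12 had at least 1 count in both.

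**Figure D4:**
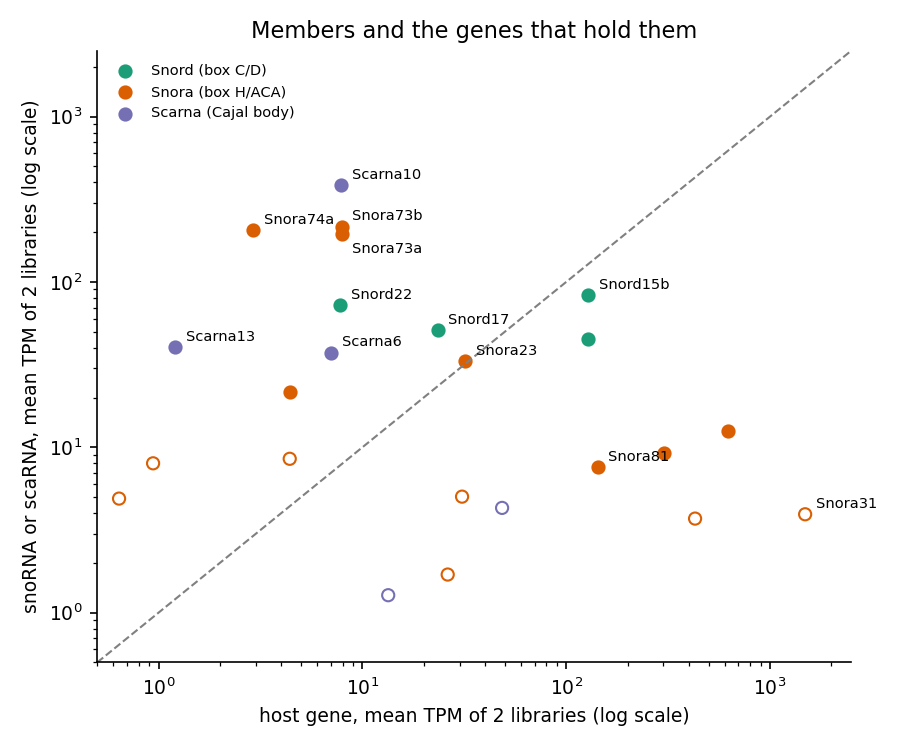
Mean TPM of member and host over the 2 libraries (both axes on a log scale) for the 24 members with a host and at least 1 count in each library, coloured by class. Filled points have a summed count of at least 20, open points fewer, and the dashed line marks equal TPM. Snora74a, Scarna10 and the Snora73 pair lie far above the line, and Snora81 and Snora31 far below.

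All 8 core proteins that work with these RNAs were read. The 4 box C/D core proteins summed to 54.1 TPM in replicate 1 and 72.2 TPM in replicate 2, and the 4 box H/ACA core proteins to 55.8 and 72.3 TPM. Snu13 had 18.5 and 22.7 TPM, Nop56 15.7 and 18.1 TPM, and Fbl, the methyltransferase fibrillarin, 11.1 and 15.1 TPM. Nop10 had 26.5 and 28.1 TPM, Nhp2 11.9 and 16.0 TPM, and Dkc1, the pseudouridine synthase dyskerin, 11.2 and 15.2 TPM.

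Among 10 assembly factors with an ID, Pih1d1 was highest with 17.2 and 19.5 TPM, and Ruvbl1 had 9.63 and 12.9 TPM. Of the 7 Cajal body, export and trimming factors, Phax, the export adaptor for capped small nuclear RNAs, had 11.6 and 11.4 TPM. Coil, the Cajal body scaffold coilin, had 1.61 and 2.01 TPM, and Wrap53, which binds Cajal body RNAs, had 2.07 and 1.69 TPM. Among the 17 listed non-coding hosts with an ID, Rian had the highest level with 173 and 365 TPM. It is a non-coding RNA of an imprinted locus, and it is the host of none of the members.

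The libraries were then compared as replicate 1 over replicate 2, on counts scaled with TMM. With 1 library on each side there is no test and no p-value, and a gene was counted as different at 2-fold or more with a summed count of at least 20. Of all 15734 genes with that many counts, 4.66% passed, 2.07% higher in replicate 1 and 2.59% higher in replicate 2. Of the 17 members tested, 1 passed, Snora81, and it was higher in replicate 1. It had 23.7 counts in replicate 1 and 11.8 in replicate 2, a log2 ratio of 1.34 with a 95% exact binomial (Clopper-Pearson) interval of 0.31 to 2.50. Snora81 lies whole within a transcript of Eif4a2 and shares reads with other transcripts, and with a summed count minimum of 50 it is no longer counted and no member passes.

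Abundant members differed little. Scarna10 had a log2 ratio of 0.24 (0.16 to 0.31), Snora74a 0.21 (0.04 to 0.37), Snora73b -0.01 (-0.16 to 0.15) and Scarna2 -0.06 (-0.17 to 0.06). Snord15a had 0.63 (0.12 to 1.15), from 72 counts in replicate 1 and 60 in replicate 2. The median over the 17 members was 0.20 (quartiles 0.04 and 0.37), beside -0.01 over all genes (quartiles -0.21 and 0.17). Scaling by total counts instead moves the median of all genes to -0.14 and that of the members to 0.07.

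By class, the summed log2 ratio on TMM-scaled counts was 0.18 (-0.01 to 0.37) for box C/D, 0.11 (0.03 to 0.20) for box H/ACA and 0.15 (0.09 to 0.21) for Cajal body genes, without a test of a difference between classes. With total counts these were 0.05, -0.01 and 0.02, and in TPM 0.03, -0.01 and 0.0026, so the direction for box H/ACA genes depends on the scaling. None of the 4 box C/D core proteins, 4 box H/ACA core proteins, 10 assembly factors or 7 Cajal body and trimming factors passed 2-fold. Of 15 tested genes on the list of non-coding hosts 1 passed, Mirg, with 7.85 TPM in replicate 1 and 21.5 TPM in replicate 2. Mirg, like Rian, is the host of none of the members.

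Markers of 2 of the 5 other cell types passed 2-fold. The Schwann cell markers Mbp and Pmp22 passed 2-fold and were higher in replicate 2, with 52.8 TPM in replicate 1 and 143 TPM in replicate 2 for Mbp and 73.4 and 165 TPM for Pmp22. All 3 red cell markers (Hbb-bs, Hba-a1 and Hba-a2) passed and were higher in replicate 1, with 2811 and 1431 TPM. None of the 6 muscle, 3 endothelial, 3 fibroblast or 3 macrophage markers passed. The part of such cells in the members' ratios was not tested, and in bulk RNA fewer cells of a type and less RNA per cell cannot be told apart.

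**Figure D5:**
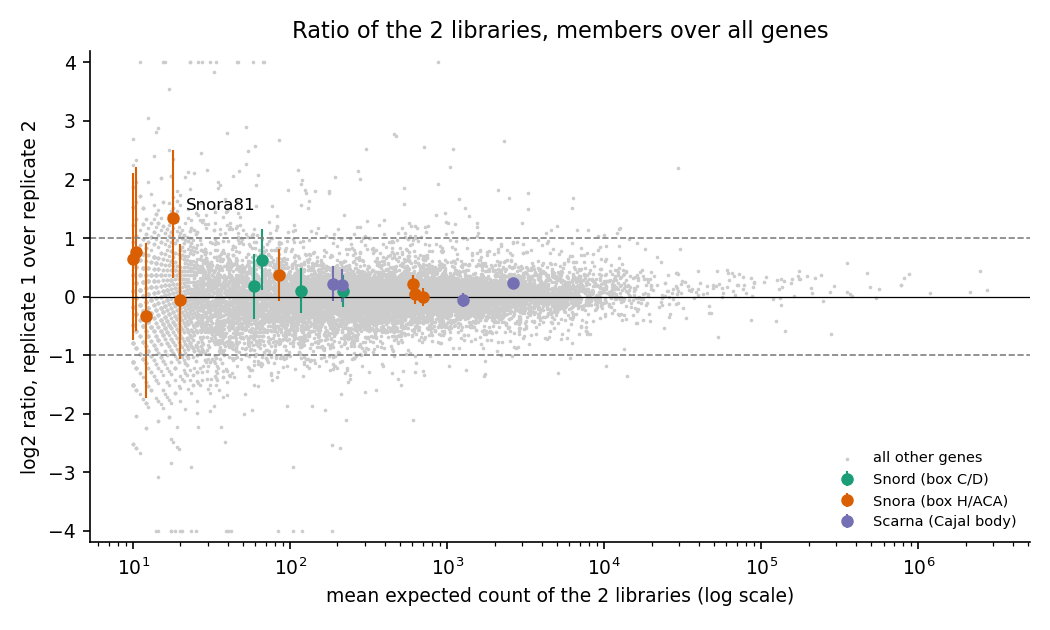
Log2 ratio of TMM-scaled counts, replicate 1 over replicate 2, against the mean count of the 2 libraries (log scale), for genes with a summed count of at least 20. Grey points are all other genes, drawn at 4 or -4 where they lie beyond, coloured points the 17 members with 95% exact binomial intervals, and dashed lines mark 2-fold. Snora81 is the member outside the dashed lines.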

How the data were processed

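Total RNA (300 ng per library, with spike-ins of a profile for stranded libraries reduced in ribosomal RNA, per the labels) was extracted with a Norgen kit. For each library the authors deposited gene and transcript tables of expected counts and TPM made from transcriptome alignments, with TPM bounds treated as a score of unstated level, and a direct transcript table of estimated counts and TPM, per the file headers and accompanying notes (mm10, GENCODE M21). The names of aligner and quantifiers were not given in the sources used here. As a limit, the reference carries C57BL/6J bases only.

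Hosts, positions and sequences came from GENCODE M21, and a host is the spanning gene of highest TPM on the same strand. Sharing of reads was taken as a deposited posterior SD above 1% of the count in either library. Counts were rounded, and edgeR 4.0.16 gave TMM factors of 0.957 and 1.05, with R 4.3.3, Python 3.11.15 and pandas 2.3.3. Ratios use a prior count of 0.5. The ratio and interval code was tested on simulated data. Because each side has 1 library, no p-value was computed. Alternatives were DESeq2 1.42.0 size factors, total counts, other count minimums, posterior mean TPM, annotated length, CPM, the direct tables, omission of Rn7s1 and Rn7s2, and 1 library at a time. The direct tables lacked 86 annotated genes, and 26248 rows named by a number were left out.

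Named genes are the 8 of highest mean TPM in each class, the highest direct counts, members past 2-fold and leading list members; others are said to be chosen later. The members and lists were chosen with earlier results of these data known. Of 57 listed symbols, 4 had no ID. Some items are not reported here.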

Additional observations from a re-analysis of the deposited data

How the results depend on the processing

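No paired analysis was possible because the series holds 1 group. Levels depend on the length used and on the quantification. The members' share of TPM, 0.164%, was 0.0119% with the direct tables, 0.167% with posterior mean TPM, 0.105% with counts per annotated length, 0.0177% of counts without length, and 0.220% without Rn7s1 and Rn7s2, the signal recognition particle RNAs. In the same order of settings the share of Snord genes, 0.0259%, was 0%, 0.0282%, 0.0107%, 0.00119% and 0.0349%. That of Snora genes, 0.0771%, was 0%, 0.0792%, 0.0438%, 0.00550% and 0.104%, and that of Scarna genes, 0.0607%, was 0.0119%, 0.0595%, 0.0509%, 0.0111% and 0.0817%. Omission of the Rn7s genes changes only the denominator. With 2 libraries, leaving 1 out must move a share by less than the SD, so it shows nothing of stability. Members with reads in both libraries were 1 with the direct tables instead of 28 (0 Snord, 0 Snora and 1 Scarna instead of 5, 17 and 6), and stayed within 1.5 times with the other minimums. Members past 2-fold and higher in replicate 1 were 1 of 17 as reported. With a summed count of at least 10 they were 2 of 22 (Snora5c and Snora81). They were 0 of 12 with at least 50, 11 of 42 with no minimum and 0 of 1 with the direct tables. Among all genes, 2.07% were higher in replicate 1 as reported. In the same order of settings this was 2.98% of 17383, 1.31% of 13810, 2741 of 24859 and 1.84% of 16391 genes. Members higher in replicate 2, 0 as reported, were 5 of 42 with no minimum, beside 3577 of 24859 genes. In either direction, 25.4% of those 24859 genes passed. Summed log2 ratios with total counts were 0.0109 for all members instead of 0.1386, -0.0148 for Snora instead of 0.1129 and 0.019 for Scarna instead of 0.1468. The direct quantification gave 0.0501 for all members and 0.0501 for Scarna, the counts being nearly all those of Scarna2. The cause of these moves was not tested beyond the length and scaling that define each setting. Depth limits the genes under about 20 summed counts, and the gene tables cannot give a level to the 89 members under 100 bases.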

Other observations

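Some other short structured RNAs had levels well above every member. Rn7sk had 15571 TPM in replicate 1 and 17883 TPM in replicate 2, Rpph1, the RNA of RNase P, 4443 and 4780 TPM, and Rmrp 2054 and 2823 TPM. Terc, the telomerase RNA and itself of the box H/ACA kind, had 0.66 and 0.76 TPM from 6 and 8 counts, and was kept by the direct tables with 5 and 7 counts. Rnu12, a minor spliceosomal RNA, had 13.0 and 13.6 TPM. Terc and Rnu12 were chosen after their values were seen.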
